A study of Mus musculus with 24 samples.

Results

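The genes described here are the building parts of the motile cilium, the beating hair on the airway lining: 52 gene symbols of the 24970 measured. They were chosen by name. A symbol qualified when it began with Dnah, Dnaic, Dnali, Rsph, Cfap or Tekt followed by a digit, or was Foxj1, Hydin or Tppp3, and when it held at least 1 TPM in all 3 control lungs profiled 6 days after tamoxifen. Of 60 symbols that matched by name, 8 fell below that level. TPM are transcript levels divided by transcript length and scaled to a fixed sum per library, so levels may be compared between genes. The members were 27 Cfap genes, 9 Dnah genes, 3 Dnaic and Dnali genes, 6 Rsph genes, 4 Tekt genes and the 3 single genes.

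Poly(A) RNA was sequenced from 24 mouse libraries of 4 kinds, each comparing controls with mice whose alveolar type 2 (AT2) cells had lost 3 microRNAs of the let-7 family (a, d and f). Every mouse carried Sftpc-CreER, a Cre recombinase switched on by tamoxifen and driven by the surfactant protein C promoter of AT2 cells, together with the R26-tdT reporter, and every mouse received tamoxifen. Control mice were labelled Sftpc-CreER/+; R26-tdT/+, and knockout mice carried the let7afd deletion (let7afd-/-) in addition. Sorted AT2 cells came 6 days after tamoxifen as pools of 3 mice, 3 libraries per genotype. Whole lungs of 3 mice per genotype were taken at 6 days, and of 4 per genotype when booster tamoxifen had been given for 6 months. AT2 organoids, which are AT2 cells grown in three-dimensional culture, came from 2 mice per genotype after 14 days. Neither the ages of the mice nor the gates of the sort are given in the sources used here. The driver acts in AT2 cells, and the whole-lung libraries hold every cell type of the lung, the ciliated cells of the airway among them.

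Motile cilia cover the ciliated cells of the airway and move mucus by beating. Each cilium holds an axoneme, a ring of doublet microtubules around a central pair. Dynein motors on the doublets make them slide, outer arms setting beat frequency and inner arms shaping the stroke. Radial spokes carry signals from the central pair to the dyneins. The transcription factor Foxj1 switches on the genes of motile cilia, and RFX factors bind the X-box, a near-palindrome found in many of their promoters. AT2 cells make surfactant and carry no motile cilia.

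The mature microRNAs removed in the knockouts share the same seed, so the same seed matches were searched for all of them. The sequences are from RefSeq (GRCm38.p6), all on the minus strand of chromosome 13, with the seed (bases 2 to 8) in capitals. let-7a-5p lies at chr13:48538239-48538260, let-7f-5p at chr13:48537889-48537910 and let-7d-5p at chr13:48536078-48536099.
let-7a-5p: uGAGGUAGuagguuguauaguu
let-7f-5p: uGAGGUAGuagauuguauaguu
let-7d-5p: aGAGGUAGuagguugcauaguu
The matching 8-base site, CTACCTCA, was found in the longest annotated 3′ UTR of 1 of 50 members that have one (2.0%), the axonemal gene Cfap43, against 732 of 19884 symbols (3.68%). Counting the shorter 7-base sites CTACCTC and TACCTCA as well, 4 members held a match (8.0%), against 16.8% of all symbols. The other 3 were Cfap54, Cfap69 and Dnah9. Cfap43 and the other 3 are named because their count is small. Shorter matches and sites outside the 3′ UTR were not searched. The shares were not adjusted for UTR length, and member UTRs were as short as 51 bases.

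Promoters are shown because an X-box was common among the members. Of 41 members matched in the RefSeq promoter table (250 bases before to 50 after the start, GRCm38.p6), 13 (31.7%) held an X-box, against 5.20% of 27025 genes. The X-box was searched on both strands as GTNNCC and GNAAC with 1 to 3 bases between them. The shorter RFX core GTTGCC, which can lie inside an X-box, was present in 18 members (43.9%) and in 14.1% of all genes. The forkhead sequences TGTTTAC and TGTTTGC were present in 7 members (17.1%) and in 9.47% of all genes. The printed promoters belong to the outer dynein arm genes Dnaic1 and Dnaic2, the central pair gene Hydin and the doublet filament gene Tekt2, with X-boxes and, in Tekt2, a forkhead match in capitals. They are Dnaic1 at chr4:41569544-41569843 (plus strand), Dnaic2 at chr11:114727169-114727468 (plus strand), Hydin at chr8:110266727-110267026 (plus strand) and Tekt2 at chr4:126325639-126325938 (minus strand, one of 3 starts in the table).
Dnaic1: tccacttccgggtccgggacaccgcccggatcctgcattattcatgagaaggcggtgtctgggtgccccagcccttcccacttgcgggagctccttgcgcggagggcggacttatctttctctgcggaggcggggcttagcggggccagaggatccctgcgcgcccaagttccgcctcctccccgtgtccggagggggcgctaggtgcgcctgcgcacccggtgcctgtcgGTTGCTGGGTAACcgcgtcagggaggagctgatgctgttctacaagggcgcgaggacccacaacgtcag
Dnaic2: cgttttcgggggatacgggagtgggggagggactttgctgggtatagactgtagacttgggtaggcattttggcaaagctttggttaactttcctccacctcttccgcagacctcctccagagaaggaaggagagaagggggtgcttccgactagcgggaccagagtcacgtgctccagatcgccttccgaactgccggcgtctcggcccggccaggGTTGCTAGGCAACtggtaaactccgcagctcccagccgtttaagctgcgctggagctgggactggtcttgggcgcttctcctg
Hydin: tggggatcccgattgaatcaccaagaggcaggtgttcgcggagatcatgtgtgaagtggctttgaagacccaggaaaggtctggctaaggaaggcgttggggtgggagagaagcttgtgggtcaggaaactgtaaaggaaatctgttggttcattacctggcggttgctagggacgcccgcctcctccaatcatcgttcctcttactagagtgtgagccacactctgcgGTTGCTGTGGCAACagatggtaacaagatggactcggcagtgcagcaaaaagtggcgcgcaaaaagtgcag
Tekt2: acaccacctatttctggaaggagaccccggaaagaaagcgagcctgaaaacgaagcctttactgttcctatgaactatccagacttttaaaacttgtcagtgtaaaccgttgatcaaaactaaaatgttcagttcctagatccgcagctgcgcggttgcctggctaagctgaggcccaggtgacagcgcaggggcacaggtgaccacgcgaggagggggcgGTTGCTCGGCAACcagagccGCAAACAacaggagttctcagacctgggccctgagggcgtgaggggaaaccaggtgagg
The X-box began 19 bases before the start in Dnaic1, 33 before it in Dnaic2, 21 before it in Hydin and 29 before it in Tekt2. The share with an X-box was 30.0% among 30 members below 1 TPM in at least 1 AT2 control library and 36.4% among the other 11. A match describes the letters of the window and is not evidence of binding.

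In whole lung the cilium genes were lower in the knockouts at both times. At 6 months 38 of the 52 members fell (73.1%) and 0 rose, where 13.9% of all genes tested fell and 15.9% rose. At 6 days 18 members fell (34.6%) and 0 rose, where 3.79% of all genes fell and 3.16% rose. A gene counts as fallen or risen when limma, fitted across all genes of a table on log2(TPM + 1), gave an adjusted p under 0.05. The members' median log2 fold change was −0.71 at 6 days, against −0.14 over all genes, and −0.49 at 6 months, against −0.005 over all genes. On this scale the change of a gene at low TPM is understated. In bulk lung, fewer ciliated cells and less cilium RNA in each cell cannot be told apart.

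The groups were separate for most members. At 6 days all 3 knockout lungs lay below all 3 controls in 44 members, 7 overlapped and 1, Cfap36, lay above; 23.7% of all genes lay below and 12.5% above. At 6 months all 4 knockouts lay below all 4 controls in 38 members and 14 overlapped, against 14.2% of all genes below and 16.4% above. The fold change was negative in 51 members at each time, against 64.2% of all genes at 6 days and 50.9% at 6 months. The exceptions were Cfap36 at 6 days and Cfap97 at 6 months.

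**Figure D1:**
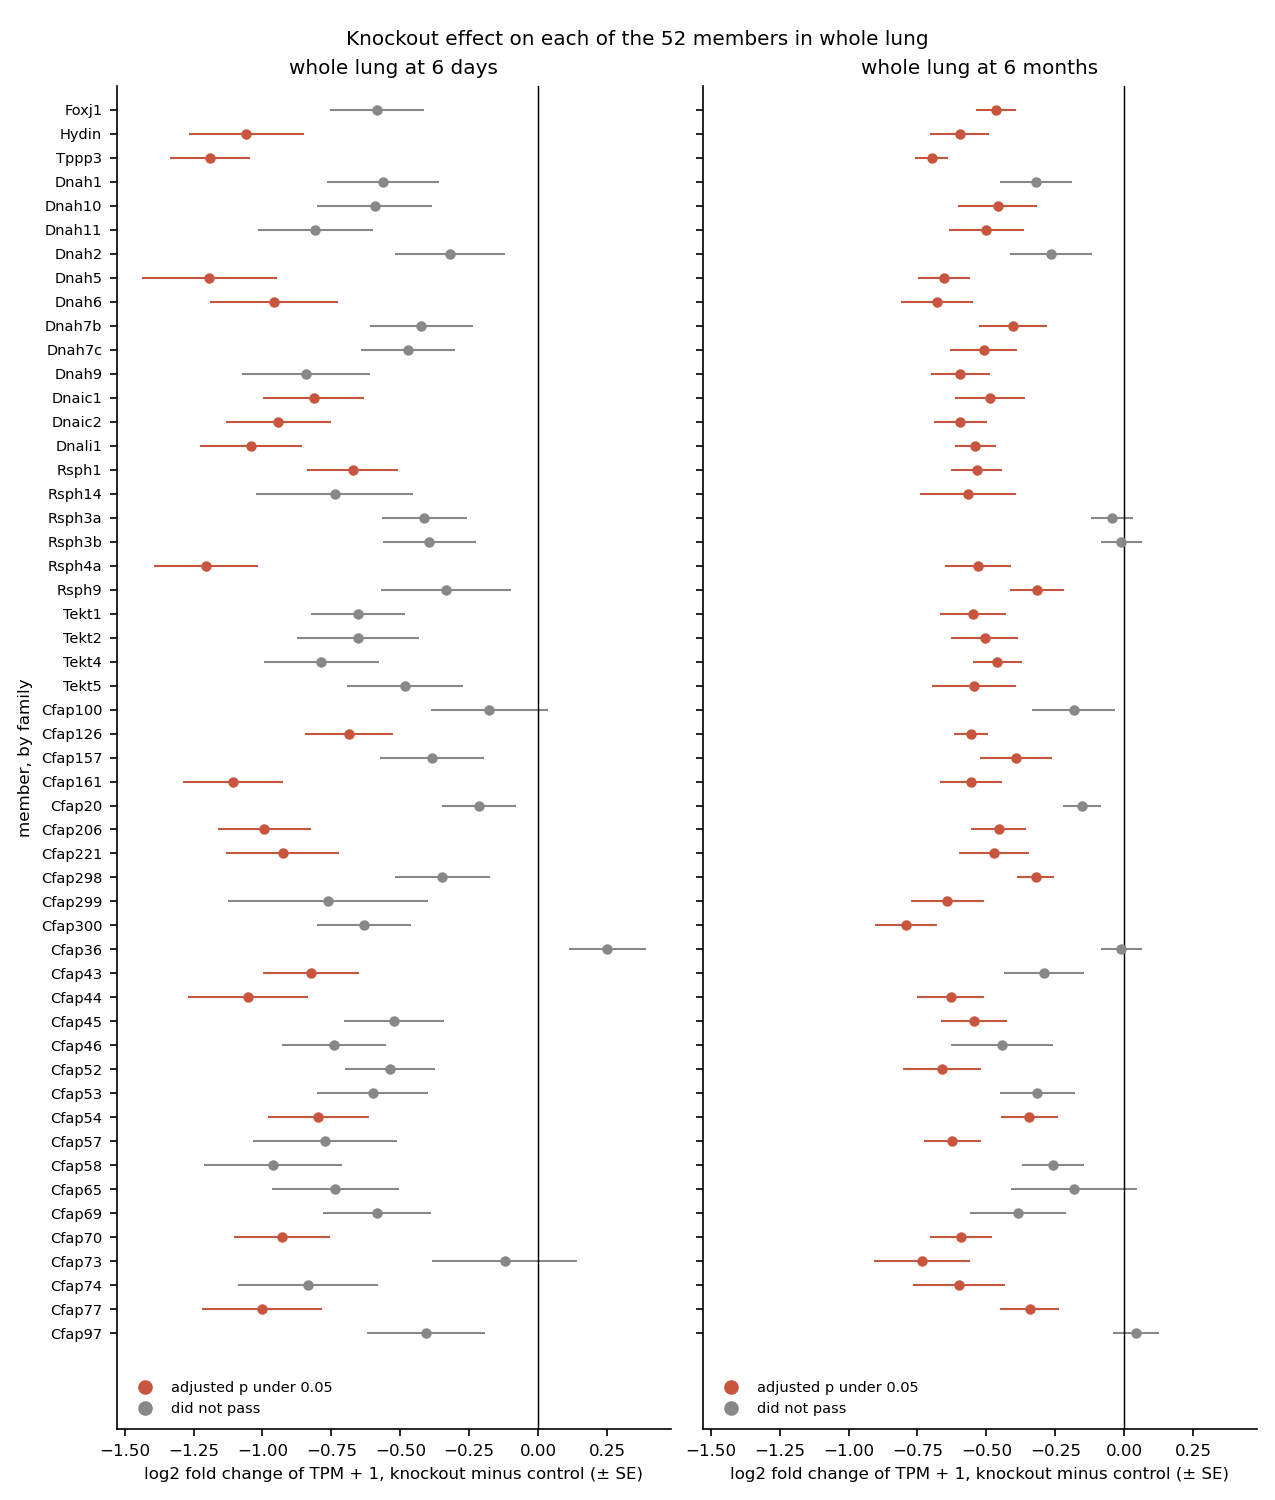
Log2 fold change of TPM + 1 (knockout minus control, x axis, bars ± SE) of the 52 members in whole lung at 6 days (left) and 6 months (right), grouped by family on the y axis. Red points passed the test (18 at 6 days, 38 at 6 months), and nearly every point lies left of 0.

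Foxj1, the master regulator of motile ciliogenesis (chr11:116330704-116335399, minus strand, GENCODE M21), was measured at 69.9, 61.1 and 74.5 TPM in control lungs at 6 days and at 39.7, 55.2 and 42.1 TPM in knockouts. The genotypes did not overlap, but limma gave an adjusted p of 0.0805, which misses the threshold (log2 fold change −0.59 ± 0.17, SE). At 6 months the controls held 85.4, 97.9, 107.8 and 89.7 TPM and the knockouts 72.7, 67.4, 65.4 and 68.3 TPM. Again every knockout was below every control, and Foxj1 fell (−0.47 ± 0.07, adjusted p = 0.000658 by limma).

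Tppp3, a microtubule-binding protein (chr8:105467493-105471526, minus strand) and the member with the highest level, was at 573, 559 and 550.3 TPM in control lungs at 6 days and at 283, 253 and 205 TPM in knockouts. At 6 months it was at 758, 729, 738 and 649 TPM in controls and at 471, 420.1, 453 and 424 TPM in knockouts. The gap was wide at both times, and Tppp3 fell by limma (−1.19 ± 0.15, adjusted p = 0.00619, and −0.70 ± 0.06, adjusted p = 7.1e-06). Tppp3 is also made outside ciliated cells: its mean in AT2 controls was 24.0% of its mean in 6-day control lungs, the tables having been normalized separately.

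Hydin, a very large protein of the central pair (chr8:110266977-110610253, plus strand), was at low TPM. Its mean was 4.03 ± 0.494 TPM (SD, n = 3) in control lungs at 6 days and 1.44 ± 0.480 in knockouts. At 6 months its controls lay between 6.40 and 7.93 TPM and its knockouts between 4.02 and 5.04 TPM. The genotypes were apart at both times, and Hydin fell by limma (−1.06 ± 0.21, adjusted p = 0.0246, and −0.60 ± 0.11, adjusted p = 0.00142).

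Among the dyneins, the 9 heavy chain genes (Dnah), which encode the motors, had negative values throughout. At 6 days 2 of them fell, against 3.79% of all genes, and at 6 months 7, against 13.9%. Dnah5, the outer arm heavy chain linked to primary ciliary dyskinesia (chr15:28203752-28472052, plus strand), was at 7.99, 6.84 and 9.49 TPM in control lungs at 6 days and at 3.88, 3.41 and 1.87 TPM in knockouts. At 6 months it was at 12.1, 12.9, 13.1 and 12.7 TPM in controls and at 9.12, 7.12, 7.15 and 7.53 TPM in knockouts. No knockout reached a control at either time, and Dnah5 fell (limma, −1.19 ± 0.24, adjusted p = 0.0284, and −0.65 ± 0.10, adjusted p = 0.000343). Dnah6, an inner arm heavy chain, fell at 6 days from a mean of 7.60 to 3.498 TPM (adjusted p = 0.0486) and at 6 months from 13.0 to 7.83 TPM (adjusted p = 0.00227). Dnah9, of the outer arm, and Dnah10, of the inner arm, did not pass at 6 days (adjusted p = 0.069 and 0.128) and fell at 6 months (adjusted p = 0.00146 and 0.031; limma throughout).

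The smaller dynein subunits fell together. Dnaic1 and Dnaic2 are intermediate chains that anchor the outer arm, and Dnali1 is a light intermediate chain of the inner arm. All 3 fell at both times, where 3.79% of all genes fell at 6 days and 13.9% at 6 months. With a lung left out, the 6-day calls of Dnaic1 and Dnaic2 each held in 2 of 6 fits. That of Dnali1 held in 3 of 6. Dnali1 was at 25.7, 19.6 and 27.1 TPM in controls and at 10.8, 12.6 and 10.02 TPM in knockouts at 6 days. At 6 months Dnali1 was at 28.0, 29.4, 33.2 and 29.1 TPM against 21.02, 19.4, 19.3 and 21.3 TPM. The groups did not overlap at either time (limma, −1.04 ± 0.19, adjusted p = 0.0182, and −0.54 ± 0.07, adjusted p = 0.000234). Dnaic2 fell by 0.94 and 0.59 on the log2 scale and Dnaic1 by 0.81 and 0.49.

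The radial spoke genes fell into separate patterns. Rsph4a, a spoke head protein, was at 17.7, 14.0 and 18.0 TPM in control lungs at 6 days and at 6.01, 7.94 and 5.95 TPM in knockouts, the largest log2 fold change of any member at that time (−1.21 ± 0.19, adjusted p = 0.0129 by limma). At 6 months it was at 20.7, 22.2, 20.6 and 19.4 TPM against 17.6, 14.8, 13.3 and 11.1 TPM, again with no overlap (−0.53 ± 0.12, adjusted p = 0.00582). Rsph1, also of the spoke head, fell at both times, from a mean of 37.5 to 23.3 TPM at 6 days (adjusted p = 0.0497) and from 55.0 to 37.8 TPM at 6 months (adjusted p = 0.00116). Its 6-day call passed in only 2 of 9 alternative settings, with adjusted p up to 0.122 by limma. These were array weights and every matching symbol, and the latter leaves the fit of a single gene unchanged. The call passed in 1 of 6 fits with a lung left out. The 6-day calls of Dnah6, Cfap126, Dnaic1 and Dnaic2 were also lost in some of the 9 settings. They passed in 5, 6, 7 and 7 of 9, the unchanged fit included. Rsph3a and Rsph3b, near-identical genes for a spoke stalk protein whose reads may have been divided between them, did not pass at either time. Their 6-month fold changes were −0.04 ± 0.08 and −0.01 ± 0.07. Rsph9, of the spoke head, did not pass at 6 days (adjusted p = 0.398) and fell at 6 months (−0.32 ± 0.10, adjusted p = 0.0305).

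The tektins, which form filaments inside the doublet wall, passed in 0 of 4 genes at 6 days. At that time 3 had an unadjusted p under 0.05, as did 3563 of all 14154 genes tested. At 6 months 4 of 4 passed, where 13.9% of all genes fell. Tekt1 was at 23.4, 17.9 and 20.4 TPM in control lungs at 6 days and at 11.5, 13.1 and 13.4 TPM in knockouts. At 6 months it was at 28.2, 21.8, 32.0 and 25.5 TPM against 19.2, 19.0, 15.02 and 18.7 TPM. The groups were apart at both times, with an adjusted p of 0.0587 at 6 days and 0.00479 at 6 months by limma. Tekt2, Tekt4 and Tekt5 fell at 6 months by 0.51, 0.46 and 0.54 on the log2 scale.

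Of the 27 Cfap genes, a collection of axonemal and ciliary proteins without a common structure, 9 fell at 6 days and 17 at 6 months. Over all genes 3.79% and 13.9% fell. Cfap206, a radial spoke protein first described in Tetrahymena, was at 20.1, 18.5 and 18.5 TPM in control lungs at 6 days and at 7.94, 10.5 and 8.91 TPM in knockouts. Every knockout was below every control, and Cfap206 fell (limma, −0.99 ± 0.17, adjusted p = 0.0153). At 6 months it fell as well (−0.46 ± 0.10, adjusted p = 0.00523). Cfap126 (Flattop), which positions basal bodies, fell from a mean of 42.2 to 26.0 TPM at 6 days (adjusted p = 0.0427) and from 66.1 to 44.6 TPM at 6 months (adjusted p = 4.81e-05).

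Some Cfap genes passed at 6 months only. Cfap300, needed for dynein arm assembly, had the largest log2 fold change of the 52 members at that time, from 11.1, 12.2, 12.1 and 9.68 TPM in controls to 6.42, 7.08, 5.66 and 5.21 TPM in knockouts (−0.79 ± 0.11, adjusted p = 0.000308). At 6 days its means were 7.60 and 4.56 TPM (adjusted p = 0.0652). Cfap73 had means of 4.32 and 2.22 TPM at 6 months (adjusted p = 0.00784), and at 6 days its means of 2.75 and 2.49 TPM overlapped (adjusted p = 0.792). Cfap45 and Cfap52, proteins of the doublet lumen, did not pass at 6 days (adjusted p = 0.122 and 0.0901) and fell at 6 months (adjusted p = 0.00496 and 0.0043; limma). Cfap69 did not pass at either time (adjusted p = 0.115 and 0.123).

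**Figure D2:**
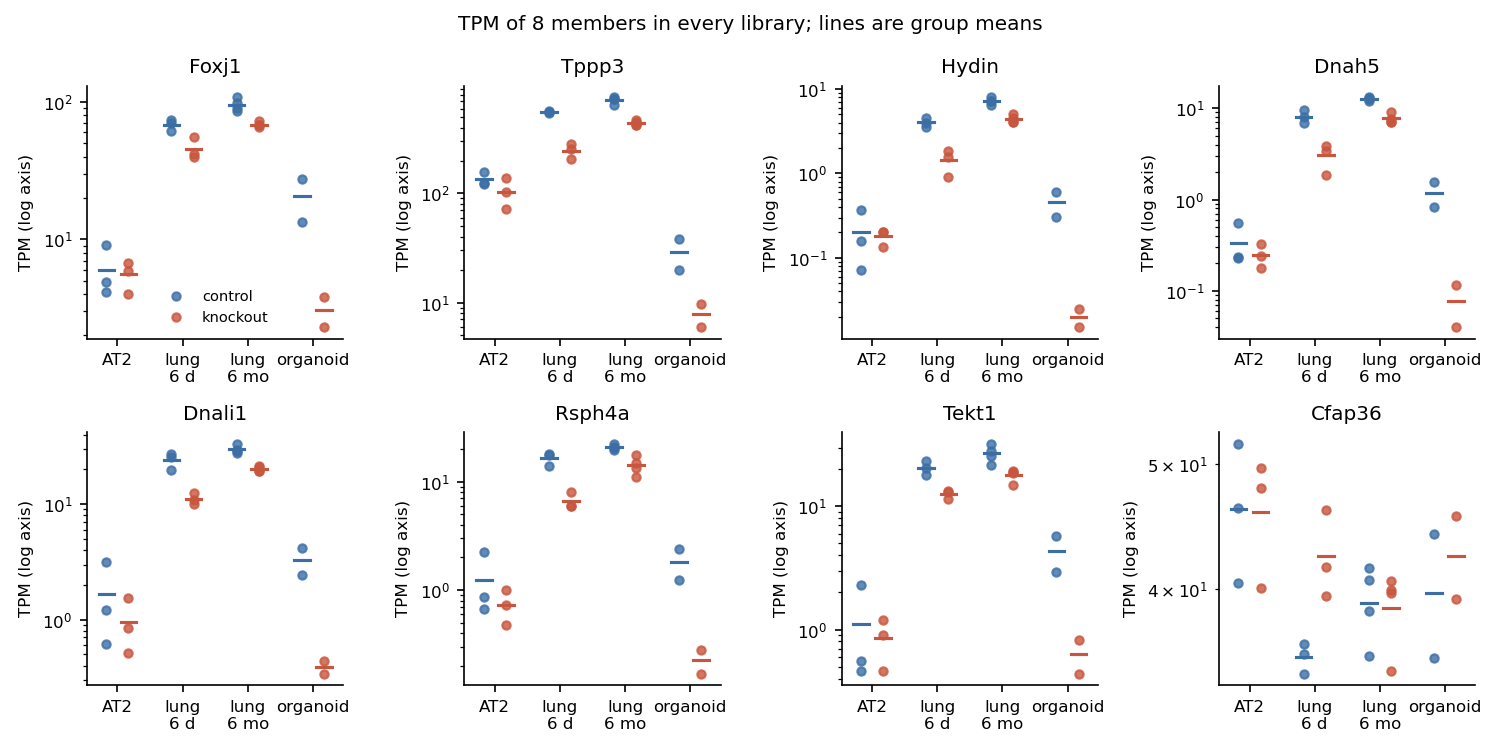
TPM (log axis) of 8 members in every library of the 4 kinds of sample, one point per library and a line for each group mean. In both lung groups the knockout points of Foxj1, Tppp3, Hydin, Dnah5, Dnali1, Rsph4a and Tekt1 lie below the control points, and Cfap36 has overlapping groups at 6 months.

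The counts differed with a feature that the naming rule did not use, the level in sorted AT2 cells; the difference between these sets was not tested. In 36 members at least 1 AT2 control library was below 1 TPM, and in 16 members all 3 were at or above it. Of the 36 members low in AT2 cells, 15 fell at 6 days (median log2 fold change −0.80) and 29 at 6 months (−0.52). Of the 16 present in AT2 cells, 3 fell at 6 days (−0.55) and 9 at 6 months (−0.35). The shares that fell over all genes were 3.79% and 13.9%.

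Values nearer 0 were found for 7 genes whose AT2 control mean was at least 50% of the 6-day lung control mean, a group chosen after the values were seen. They were Cfap20, Cfap298, Cfap36, Cfap97, Rsph3a, Rsph3b and Rsph9. Their median was −0.35 at 6 days, with 0 fallen by limma. An unadjusted p under 0.05 was found for 2 of the 7, and for 3563 of all 14154 genes tested. At 6 months the median was −0.04 and 2 fell, Cfap298 and Rsph9, where 13.9% of all genes fell. Cfap36, which binds the small GTPase Arl3, was at 36.3, 35.6 and 34.4 TPM in control lungs at 6 days and at 39.5, 46.1 and 41.6 TPM in knockouts. These knockouts were all above the controls, but the difference did not pass (0.25 ± 0.14, adjusted p = 0.294). At 6 months Cfap36 ran from 35.4 to 41.5 TPM in controls and from 34.5 to 40.6 TPM in knockouts, the groups overlapping almost entirely. Cfap20, a protein of the doublet inner junction, had an AT2 control mean of 63.0 TPM, above its lung control mean of 46.8 TPM at 6 days, and did not pass at either time (adjusted p = 0.343 and 0.127). Cfap298, a dynein assembly factor, was at 65.2 TPM in AT2 controls and 44.2 TPM in 6-day lung controls, and fell at 6 months (−0.32 ± 0.07, adjusted p = 0.00353).

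**Figure D3:**
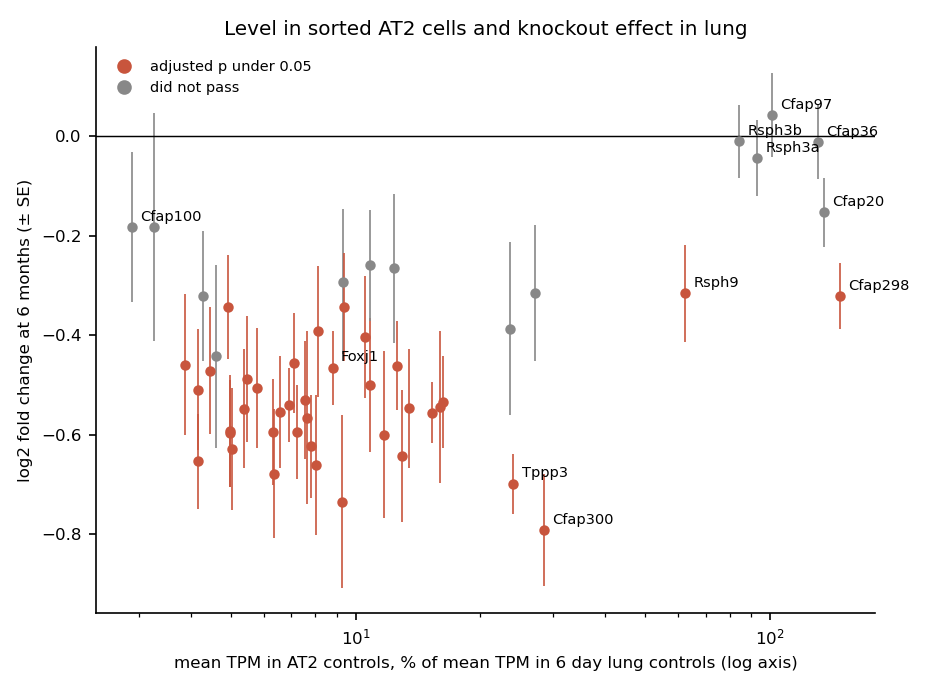
Log2 fold change at 6 months in whole lung (y axis, bars ± SE) against the mean TPM in AT2 controls as a percent of the mean in 6-day lung controls (x axis, log scale), one point per member, red where the test passed. The genes at 50% or more on the x axis have a median of −0.04, against −0.49 over all 52 members. Only Cfap298 and Rsph9 among them passed. The genes below 50% overlap them in range: Cfap298 and Rsph9, at −0.32, lie farther from 0 than Cfap100, at −0.18.

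Axoneme genes and ciliated cell markers outside the naming rule also fell. Over all genes, 3.79% fell and 3.16% rose at 6 days, and 13.9% fell and 15.9% rose at 6 months. Of 43 further axoneme and dynein assembly genes tested at 6 days, 12 fell and 0 rose (median −0.66), and of 44 tested at 6 months 28 fell and 0 rose (−0.41). Examples at 6 days were Drc1, of the nexin-dynein regulatory complex, with means of 15.8 and 6.40 TPM (adjusted p = 0.0131), and Ttc29, a dynein-associated protein, with 9.90 and 4.53 TPM (adjusted p = 0.0223). Of 19 ciliated cell markers outside the rule, 7 fell at 6 days (−0.72) and 16 at 6 months (−0.49), with 0 risen. Cdhr3, a cadherin of ciliated cells, had means of 32.4 and 13.9 TPM at 6 days (adjusted p = 0.00844) and 48.6 and 29.9 TPM at 6 months (adjusted p = 6.97e-05). Intraflagellar transport genes, which ciliated and many other cells use, fell in 1 of 29 at 6 days (Ift81, adjusted p = 0.0309), or 3.45%, near the 3.79% of all genes, with a median of −0.35. At 6 months 8 of 29 fell, or 27.6% against 13.9% of all genes, with a median of −0.18.

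Few genes passed in a list that mixed multiciliation regulators with centriole amplification genes and others, such as Tuba1a and Ift57. Of 22 tested at 6 days, 2 fell, Gmnc, the geminin-like switch of the program, with means of 4.15 and 1.72 TPM (adjusted p = 0.0243), and Ank3 (adjusted p = 0.0433), or 9.09% against 3.79% of all genes. Mcidas, the partner of Gmnc in that switch, had higher means in knockouts, 0.805 against 1.94 TPM, which did not pass (0.70 ± 0.18, adjusted p = 0.0545 by limma). Of 20 tested at 6 months, 3 fell (Tuba1a, Myb and Trp73) and 1 rose (Hes6, adjusted p = 0.0162), with a median of −0.02. These shares, 15% and 5%, stood beside 13.9% and 15.9% of all genes, so the share of this mixed list that fell was near the background.

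Club cell markers, of the secretory cells that line the same airways, moved with the cilium genes. Of 14 tested, 8 fell at 6 days (median −1.09) and 9 at 6 months (−0.61), with 0 risen. The background was 3.79% and 13.9% of all genes fallen, and 3.16% and 15.9% risen. Cyp2f2, a club cell cytochrome, fell from a mean of 3035 to 745 TPM at 6 days (adjusted p = 0.00337) and from 3620.4 to 1695 TPM at 6 months (adjusted p = 3.14e-08). The summed level of the 15 club cell markers was 160336 to 184452 TPM in 6-day control lungs and 74138 to 91854 TPM in knockouts. Most of it was Scgb1a1, with 166349 of 184452 TPM in control 1 and 68360 of 74138 TPM in knockout 1. The 36 members low in AT2 cells summed to 286, 241 and 279 TPM in those controls and to 136, 154 and 123 TPM in the knockouts. As a percent of the club cell sum this was 0.151 to 0.161 in controls and 0.145 to 0.183 in knockouts, which overlap. That percent mainly sets the members against Scgb1a1, not against all 15 markers alike. At 6 months the members summed to 355 to 400.0 TPM in controls and 237 to 282 TPM in knockouts, and the percent was 0.166 to 0.202 and 0.198 to 0.270, the knockouts reaching higher. The part that the share of airway in each sampled lung has in these differences was not tested.

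Markers of other lung cells differed between the same lungs. Their counts stand beside 3.79% of all genes fallen and 3.16% risen at 6 days, and 13.9% and 15.9% at 6 months. An unadjusted p under 0.05 was found at 6 days for 3563 of all 14154 genes tested. Of 8 endothelial markers, 0 passed at 6 days (5 with an unadjusted p under 0.05, median −0.88) and 8 fell at 6 months (−0.60). Their summed level at 6 months was 2416 to 2607 TPM in controls and 1495 to 1653 TPM in knockouts. Of 8 fibroblast markers, 2 fell at 6 days (−0.54), and 4 fell and 1 rose at 6 months (−0.46). Of 7 pan-leukocyte markers, 3 rose at 6 days (0.63) and 5 at 6 months (1.51). Their sum at 6 months was 1083 to 1386 TPM in controls and 2779 to 3177 TPM in knockouts. Of 10 alveolar macrophage markers, 3 rose and 1 fell at 6 days (0.06), and 7 rose and 2 fell at 6 months (1.55). Of 12 AT2 cell markers, 2 rose and 2 fell at 6 days (−0.21) and 9 rose at 6 months (0.54). Within this list Sftpc was at 28797 to 33719 TPM in controls and 10154 to 13236 TPM in knockouts at 6 days. At 6 months its groups overlapped, at 14631 to 16029 TPM in controls and 15682 to 20086 TPM in knockouts. The part of these cell types in the fall of the cilium genes was not tested.

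Other values differed between the 6-day lungs. Haemoglobin transcripts took 1.40% to 4.72% of TPM in controls and 2.07%, 6.54% and 12.6% in knockouts 1, 2 and 3. The median log2 level of long transcripts (over 10000 bases) minus that of short ones (under 2000 bases), relative to the control mean, was −0.06 to 0.08 in controls and −0.17, −0.42 and −0.93 in the same knockouts. The Dnah sum followed this order, at 18.0, 15.9 and 9.23 TPM, against 27.7 to 33.3 TPM in controls. The 42 members with transcripts of 10000 bases or less had a median of −0.71 at 6 days. Of these 42, 15 fell, where 3.79% of all genes fell. The part of transcript length or blood in the fall was not tested. Without knockout 3, 23 members fell (median −0.63), where 1017 of all 14357 genes fell and 1032 rose. The median of all genes was 0.005. Without control 1, 0 passed by limma, where 51 of all genes fell. Without control 2, control 3 or knockout 2 the number was 3, 1 or 4, where 251, 80 or 172 of all genes fell. The medians lay between −0.77 and −0.63 in all these fits. At 6 months haemoglobin overlapped between the genotypes (0.773% to 2.03%). The long minus short difference was −0.08 to 0.07 in the 6-month controls and −0.26 to −0.09 in the knockouts, every knockout below every control, and its part in the 6-month fall was not tested either. Between 31 and 36 members fell at 6 months when any 1 lung was left out, where 1555 to 1886 of all genes fell.

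**Figure D4:**
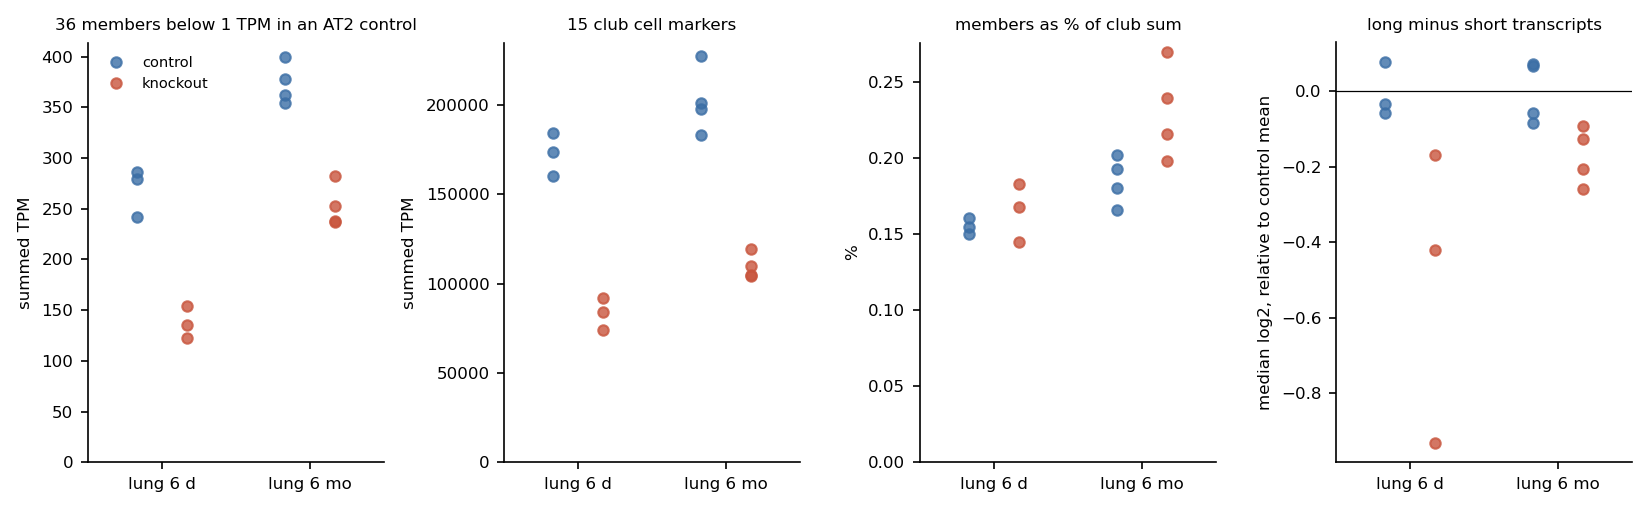
Values per lung at 6 days and 6 months (blue controls, red knockouts): summed TPM of the 36 members low in AT2 cells, summed TPM of 15 club cell markers, the former as a percent of the latter, and the long minus short transcript difference (log2). The sums are lower in every knockout, the percent overlaps, and 1 knockout lung at 6 days stands at −0.93 on the last axis. Scgb1a1 makes up most of the club cell sum.

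The limit of 1 TPM was set on 6-day controls alone, so a gene near it could enter only through that group. Just inside were Dnah7b (1.31, 1.03 and 1.09 TPM), Dnah2 (1.72, 1.06 and 1.47 TPM) and Dnah7c (1.20, 1.15 and 1.22 TPM), and just outside were Cfap61 (1.68, 1.13 and 0.97 TPM) and Cfap97d2 (3.26, 0.80 and 4.17 TPM). Dnah7b and Dnah7c are near-identical copies, so their separate levels are uncertain. Of the 8 symbols outside, 2 were tested in lung and 0 passed by limma at either time (0 and 1 with an unadjusted p under 0.05), with medians of −0.54 and −0.44.

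The size of the effect was compared between the times. The log2 fold change at 6 months minus that at 6 days was positive in 43 of the 52 members. Its median over all 52 was 0.24, against 0.16 over all genes tested in both tables. With a positive median over all genes, a positive sign is not particular to the members. Of the 52 differences 0 passed (limma effects subtracted, smallest adjusted p = 0.152, where 2.73% of all genes passed, 2.38% with a positive difference). An unadjusted p under 0.05 was found for 8, all positive, and its share over all genes is not given here. Rsph4a and Tppp3 had the smallest p, with differences of 0.67 ± 0.22 and 0.49 ± 0.16 (SE).

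In sorted AT2 cells most cilium genes were at low levels and no change was detected between the genotypes. Control means above 10 TPM were limited to Tppp3 and the 7 broadly expressed genes named above. The AT2 marker list summed to 255327 to 272199 TPM in these controls, against 49689 to 56921 TPM in 6-day control lungs. Foxj1 was at 9.10, 4.86 and 4.13 TPM in AT2 controls and at 4.03, 5.89 and 6.76 TPM in knockouts, so the genotypes overlapped. The 9 Dnah genes had AT2 control means of 0.0496 to 0.484 TPM, and Dnah5 stood at 4.16% of its lung level. Of 21 members that passed the low-value filter, 0 rose and 0 fell by limma, where 6.62% of all genes rose and 1.22% fell. An unadjusted p under 0.05 was found for 2 of the 21, and for 3296 of all 12109 genes tested. Over the 52 members, all knockouts were below all controls in 1, Rsph9 (10.01 to 13.8 against 15.6 to 18.5 TPM), and above them in 2, Cfap100 and Cfap300. Of all genes that passed the filter, 8.31% were below and 25.4% above. Only 21 of the 52 members passed it, so the shares cover unlike sets of genes. The lowest adjusted p was 0.082, for Rsph9.

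AT2 control 1 stood apart among the AT2 libraries. The 36 members low in AT2 cells summed to 33.0 TPM in it, against 10.3 and 13.8 TPM in the other controls and 11.3 to 18.0 TPM in knockouts. Scgb1a1, the club cell secretoglobin, was at 13077 TPM in it, against 2818 and 3894 TPM in the other controls. The median log2 fold change of the tested members was −0.06 with this library and 0.08 without it, so no direction is given for AT2 cells.

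In organoids the cilium genes were mostly lower in knockouts, with 2 libraries per genotype, and many were at low levels in controls. The median control mean over the 52 members was 1.57 TPM. Foxj1 was at 13.5 and 27.7 TPM in controls and at 3.84 and 2.30 TPM in knockouts. Rsph1 was at 7.32 and 10.9 TPM in controls and at 2.49 and 1.05 TPM in knockouts, and Dnali1 at 2.42 and 4.18 TPM against 0.440 and 0.341 TPM. The genotypes were apart in each of these genes, while the 2 controls also differed from each other. Both knockouts lay below both controls in 46 of the 52 members, where 32% of the genes that passed the low-value filter did. Both lay above them in 1 member, Tekt5, where 39.6% of those genes did. Only 27 of the 52 members passed that filter, so the shares cover unlike sets of genes. The 9 Dnah genes, all among the 46, had control means of 0.273 to 1.19 TPM and knockout means of 0.0242 to 0.166 TPM.

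None of the organoid differences passed. Of 27 members that passed the low-value filter, 0 fell and 0 rose by limma, where 0.387% and 0.218% of all genes did. An unadjusted p under 0.05 was found for 19 of the 27, and for 4527 of all 12406 genes tested. Many of these 27 reached the filter through the controls, so their median of −1.18 is not given as support; over all 52 members without a filter it was −0.76. Foxj1 had a fold change of −2.35 ± 0.40 (adjusted p = 0.0676), and the smallest adjusted p was 0.0616, for Tekt5. Tekt5 was at 3.67 and 4.01 TPM in controls and at 8.97 and 8.18 TPM in knockouts, the opposite direction to the other 3 tektins. Cfap52 was at 4.38 and 4.07 TPM against 6.12 and 4.36 TPM, with overlap. The broadly expressed Cfap20 was at 52.05 and 57.2 TPM in controls and at 54.9 and 55.6 TPM in knockouts.

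Airway markers differed between the same organoids. The 15 club cell markers summed to 23546 and 37223 TPM in controls and to 10161 and 11473 TPM in knockouts. Krt5, a basal cell keratin, was at 721 and 1521 TPM in controls and at 54.9 and 59.8 TPM in knockouts. By limma 4 of 7 basal cell markers fell (median −3.08), where 0.387% of all genes did. Of 31 further axoneme genes tested, 0 passed (23 with an unadjusted p under 0.05), with a median of −1.01. Ciliated cell markers gave 0 of 16 (15 with an unadjusted p under 0.05) and a median of −1.68. Over all genes tested, 4527 of 12406 had an unadjusted p under 0.05. The part that other airway cells have in these values was not tested.

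**Figure D5:**
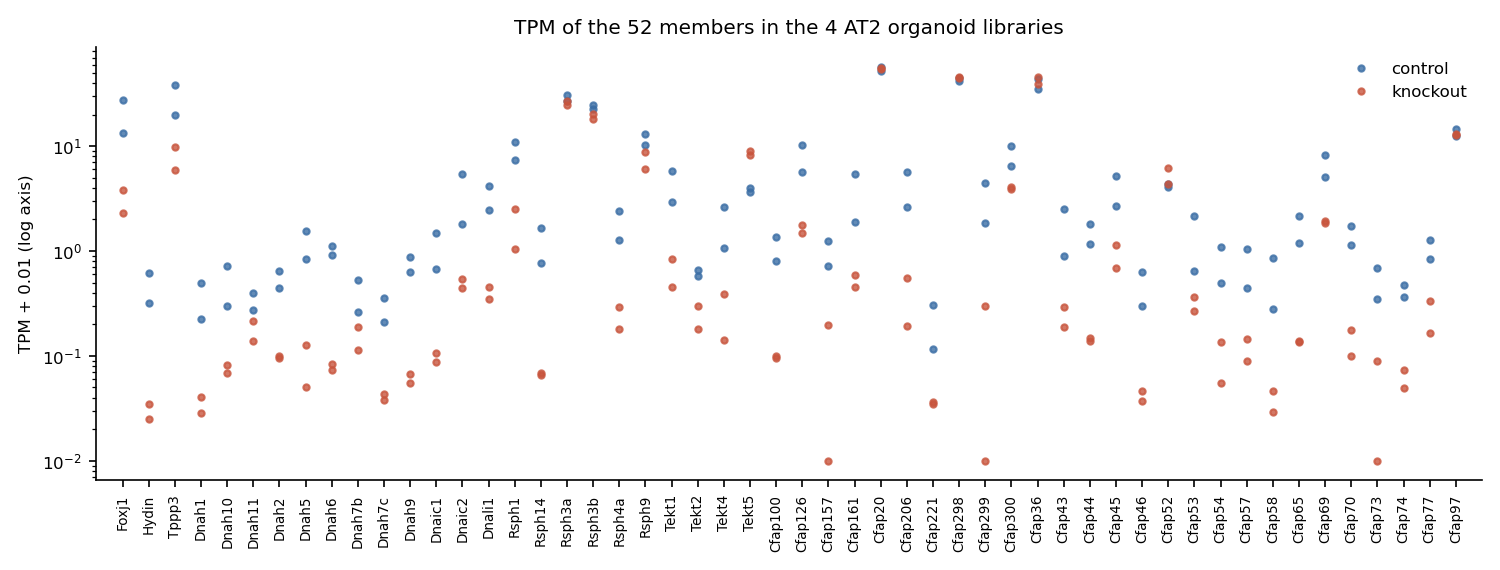
TPM + 0.01 (log axis) of the 52 members, ordered by family on the x axis, in the 2 control (blue) and 2 knockout (red) organoid libraries. Knockout points lie below control points in 46 members and above them in Tekt5 (8.97 and 8.18 against 3.67 and 4.01 TPM).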

How the data were processed

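The deposited values were TPM computed by the authors, in 1 table for each kind of sample, and the submitters' processing notes name GRCm38. No aligner, quantifier or annotation is named in those notes. Since TPM hold no read counts, the depth of each library is unknown. Per the labels' protocols the libraries do not keep the strand, so a gene and its antisense partner cannot be told apart. Of the rows, 2 with a repeated symbol were dropped.

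Log2(TPM + 1) values of each of the 4 tables were analysed separately in limma (version 3.58.1, R version 4.3.3). The model held genotype alone, with a variance trend, and two-sided p-values were adjusted by Benjamini-Hochberg over every gene tested, with a threshold of 0.05. The low-value filter asked for 1 TPM in a number of libraries equal to the smaller group. The p-values measure the spread between mice, between pools of mice in AT2 cells. Effects at the 2 times were subtracted, with SEs added in quadrature. The fits were tested on simulated data. Coordinates and 3′ UTRs came from GENCODE M21, with UTRs under 50 bases left out.

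The members and lists were chosen with earlier results of these data known. Members were named by rule: the 3 single genes, the 4 highest of each family in 6-day controls, and the 3 largest rises and falls per comparison; in other lists, the smallest adjusted p values in lung. Members named for a small count or near the limit of 1 TPM, and Mcidas, Scgb1a1, Sftpc and Krt5, were chosen after their values were seen. Alternatives were another pseudocount (0.1), no filter, a 5 TPM filter, median-ratio scaling, quantile normalization, no trend, array weights, a replicate block, every matching symbol, and leaving out each library.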

Additional observations from a re-analysis of the deposited data

Results flagged for a closer look

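At 6 months, 6 of 68 groups of 4 lungs checked held a library far from the other 3 of its genotype, and chance gives about 1 in 20. Rsph1 was at 49.98 TPM in control 1, below the other controls. Cfap126 was at 41.9 TPM and Tekt1 at 15.02 TPM in knockout 3, and Cfap36 at 34.5 TPM in knockout 2, each below the others of its group. Cfap45 was at 11.9 TPM and Cfap206 at 20.5 TPM in knockout 1, each above the other knockouts.

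For 2 members the genotypes were separated in opposite directions in different kinds of sample; the differences were not tested. Cfap300 had a knockout mean of 1.25 times the control mean in AT2 cells, with every knockout above every control, against 0.600 times in lung at 6 days, 0.541 times at 6 months and 0.483 times in organoids. Tekt5 had a ratio of 2.23 in organoids and 0.610 in lung at 6 months.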

How the results depend on the processing

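At 6 months the number of members that fell was 30 to 39 under every alternative tried, where 1555 to 2813 of all genes fell. The median stayed between −0.56 and −0.45. At 6 days the number that fell was 46 (with 1 risen) under array weights, where 4537 of all 14154 genes fell and 3858 rose. It was 7 with the replicate block, where 344 of all genes fell. When 1 lung was left out it ran from 0 to 23, where 51 to 1017 of all genes fell. The 6-day median was −0.88 with a pseudocount of 0.1, −0.56 after median-ratio scaling or quantile normalization and −0.55 with array weights. Median-ratio scaling moved the median of all genes at 6 days from −0.14 to 0.001, and the members' median relative to it was −0.57 both before and after. In AT2 cells 0 members passed under any alternative. The median there changed sign with array weights (0.0085) and when 1 library was left out, running from −0.19 to 0.078 (0.078 without control 1, 0.043 without knockout 1). In organoids the median was −2.18 with a pseudocount of 0.1, −0.76 without a filter and −0.44 at 5 TPM. Array weights gave 4 fallen and 1 risen in organoids, where 427 of all 12406 genes fell and 232 rose. The replicate block gave 1 fallen, where 277 of all genes fell. When 1 organoid library was left out, the median ran from −1.26 to −0.92. A genotype left with 1 library is assumed to vary like the other. For the difference between times, array weights gave 12 members past the threshold, and the number over all genes is not given here. The cause of these shifts was not tested. Replicate numbers shared by the genotypes were not taken as pairs, since in no table was the correlation of deviations over 0.1 in every pair. It was −0.15, 0.003 and −0.13 for lungs at 6 days, −0.15, 0.09 and 0.17 for AT2 cells and −0.07 in both organoid pairs. At 6 months it was positive in every pair (0.13, 0.07, 0.21 and 0.11), and each lung except control 2 correlated best with the lung of its own number, a hint from the data and not the design. With the replicate block 38 members fell at 6 months, where 2078 of all genes fell. Of 11 named members that fell at 6 days, each lost the call in at least 1 fit without a library, and 22 of 24 at 6 months kept it in all such fits, Dnah10 and Rsph9 being the exceptions. Depth is unknown for TPM, and the number of mice limits the precision.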
